A study of Mus musculus with 12 samples.

Results

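The genes beside Cxcr2 on mouse chromosome 1 were followed in sorted neutrophils of mice with and without this receptor. They were chosen by position and by a count limit. A gene's whole span in the GENCODE M21 annotation had to lie between 72153989 and 76161246 on chromosome 1 of mm10, which leaves 2 Mb on each side of Cxcr2. It also needed 10 or more counts in at least 4 of the 12 libraries, and Cxcr2 itself and ribosomal protein genes were left out. Of the 119 genes in this window, 118 were listed in the count tables, 62 were below the count limit, 1 was a ribosomal protein gene and 55 remained, out of 55335 genes listed in all. Of these 55 flanking genes, 46 are protein coding, 11 lie before Cxcr2 (at lower positions) and 44 after it. The outermost one after Cxcr2 lies 1385 kb away. None reached the count limit through 1 group alone, and 36 had 10 or more counts in all 12 libraries. In every bone marrow library, 7 had under 10 counts, so they passed through the tumor libraries only. Just inside the limit were Mir26b and Tmem198, each with 14 counts in the library that ranked 4 by count, and just outside were the small nuclear RNA gene Gm24497 and Ihh, each with 9.

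RNA-seq was made from 3 groups of 4 mice, with 1 library per mouse. All mice were FVB, 10 weeks old and kept under SOPF housing. Per the study's methods, PyMT-Cxcr2-/- mice had been backcrossed into FVB over many generations. PyMT mice carry the polyoma middle T oncogene, which gives mammary tumors, and PyMT-Cxcr2-/- mice carry the same oncogene with the Cxcr2-/- germline allele, so every cell of these mice lacks the receptor. WT mice carry neither. Tumor-associated neutrophils (TANs) came from mammary tumors of PyMT and of PyMT-Cxcr2-/- mice, and the third group was WT bone marrow (BM) neutrophils. All were enriched for CD11b and sorted as CD45+ CD11b+ Ly6G+ cells that lacked the macrophage antigen encoded by Adgre1. There was no BM group of Cxcr2-/- mice and no neutrophil group from a tumor-free mammary gland. The WT BM group therefore differs from TANs in tissue and in the oncogene, and from PyMT-Cxcr2-/- TANs also in the Cxcr2 allele.

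Cxcr2 is the receptor through which neutrophils respond to chemokines such as Cxcl1, Cxcl2 and Cxcl5, and it is known for releasing them from the marrow and drawing them into inflamed tissue. Its neighbour Cxcr1 is a related chemokine receptor gene. Around a targeted gene, a mouse line can keep a stretch of chromosome from the strain in which the allele was made even after long backcrossing, and an inserted cassette or a deletion can change transcription of genes nearby. In PyMT-Cxcr2-/- mice the loss of the receptor, the targeted allele and any linked stretch occur together, and in these data they cannot be told apart.

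Each library held 25032704 to 51351569 counts on genes, so that 3 counts corresponded to 0.0566 to 0.102 CPM (read counts scaled to a common library size with TMM factors), which covers counting error only. Levels of Cxcr2 followed the labels. They were 1524, 1062, 1160 and 1044 CPM in the 4 PyMT TAN libraries, 8.82, 9.73, 10.0 and 8.98 CPM in PyMT-Cxcr2-/- TANs and 2253, 2139, 1825 and 1928 CPM in WT BM neutrophils. A list of 8 neutrophil markers that includes Cxcr2 summed to 10107 to 15680 CPM for PyMT TANs, 16702 to 27148 for PyMT-Cxcr2-/- TANs and 72624 to 95062 for WT BM neutrophils. The 8 macrophage markers summed to 2121 to 5114, 2293 to 4750 and 255.7 to 357.8 CPM in the same order. With no macrophage marker at 0 in any group, transcripts of these markers were present in libraries sorted against a macrophage antigen. The marrow was higher for another list. The 5 T cell markers summed to 14.5 to 28.8 CPM for PyMT TANs, 24.3 to 43.3 for PyMT-Cxcr2-/- TANs and 210.3 to 244.7 for WT BM neutrophils. In PyMT TAN replicate 3, the 5 erythroid markers summed to 122.5 CPM, against at most 18.5 CPM in each other library. The labels give each library as a separate sample of its group, and p-values measure the spread between these libraries.

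The question asked of the flanking genes was whether their levels change with the Cxcr2-/- allele, and whether such changes lie close to it. A gene was called changed at a Benjamini-Hochberg adjusted p under 0.05 (edgeR's quasi-likelihood test over all genes tested) and a fold change of 1.5 or more. Between PyMT-Cxcr2-/- and PyMT TANs, 53 of the 55 flanking genes could be tested. Rufy4, Tns1 and Stk11ip were lower in PyMT-Cxcr2-/- TANs, and the small nuclear RNA gene Gm25360 was higher. Among all 18463 genes tested, 0.596% were called lower and 1.38% higher. Called genes made up 7.55% of the flanking genes and 1.98% of all genes tested, and on chromosome 1 outside the window the share was 2.27%, with 28 called of 1231. These shares rest on 4 flanking genes and are a description, without a test over the group. The median log2 fold change was -0.04 for the flanking genes and -0.07 for all genes tested.

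**Figure D1:**
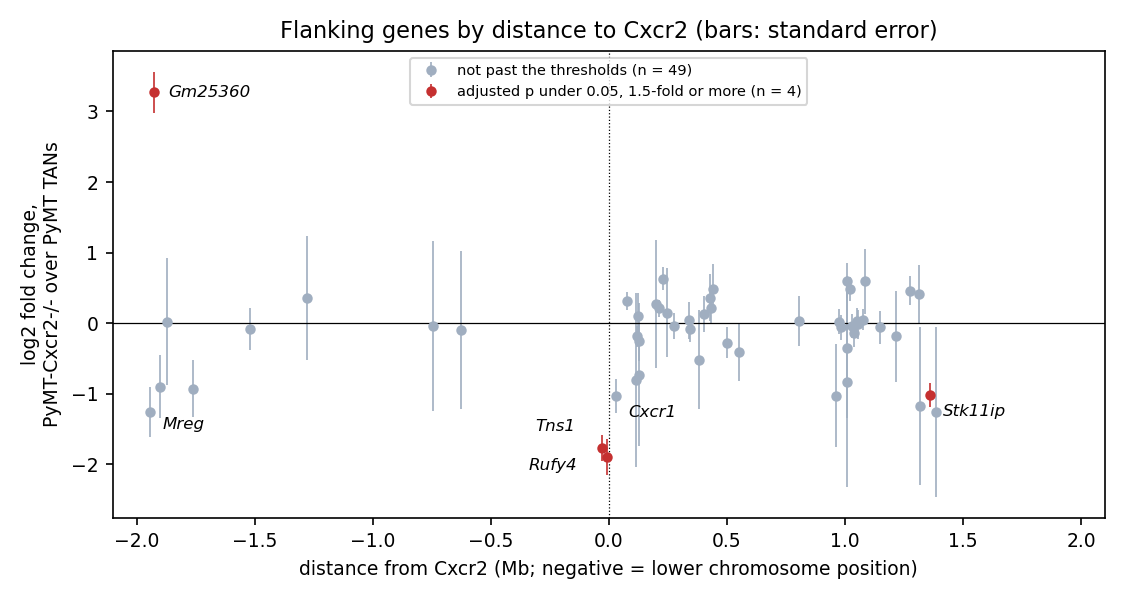
Log2 fold change between PyMT-Cxcr2-/- and PyMT TANs (vertical axis) of the 53 flanking genes tested, by distance from Cxcr2 in Mb (horizontal axis, lower chromosome positions negative), with standard errors as bars. The 4 called genes are in red: Rufy4 and Tns1 next to Cxcr2, Stk11ip at 1.36 Mb and Gm25360 at 1.928 Mb on the other side, while the other 49 lie between -1.26 and 0.63.

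Rufy4 (ENSMUSG00000061815; chromosome 1, 74125541 to 74148223, plus strand) is the closest gene to Cxcr2. It encodes a RUN and FYVE domain protein that takes part in autophagy, best known in dendritic cells. The end of its span lies 5766 bases before the start of Cxcr2 on the same strand. In PyMT TANs, Rufy4 was at 83.2, 47.5, 48.7 and 40.6 CPM (mean 55.0, SD 19.1, n = 4). In PyMT-Cxcr2-/- TANs it was at 17.0, 10.3, 16.1 and 15.6 CPM (mean 14.7, SD 3.04, n = 4). In WT BM neutrophils it was at 47.1, 48.5, 46.1 and 45.2 CPM (mean 46.7, SD 1.42, n = 4). The 4 PyMT-Cxcr2-/- libraries were below each of the other 8 libraries. The TANs differed by a log2 fold change of -1.90 (standard error, SE, 0.25, 95% interval -2.44 to -1.36, adjusted p = 0.0084 by edgeR's quasi-likelihood test), a 3.74-fold lower level. Set against WT BM neutrophils, it was -1.53 in PyMT-Cxcr2-/- TANs (SE 0.14, adjusted p = 5.7e-07, same test) and 0.30 in PyMT TANs (SE 0.20, adjusted p = 0.22, same test). Here, as for every gene below, fewer cells of a type that carry a transcript and less of it per cell cannot be told apart in bulk libraries. The neutrophil marker list was higher in PyMT-Cxcr2-/- TANs, with 5 of its 8 genes called higher and 1, Cxcr2, called lower, and none of the 8 macrophage markers was called. The part of cell composition in the change of Rufy4 was not tested.

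Tns1 (ENSMUSG00000055322; chromosome 1, 73910231 to 74124449, minus strand) lies next to Rufy4 and is read in the opposite direction. It encodes tensin 1, a protein of focal adhesions that binds actin. The 5′ ends of the spans of Tns1 and Rufy4 are 1092 bases apart. In PyMT TANs, Tns1 was at 151.2, 164.5, 147.9 and 121.0 CPM (mean 146.2, SD 18.2, n = 4). In PyMT-Cxcr2-/- TANs it was at 43.3, 45.0, 54.3 and 29.9 CPM (mean 43.1, SD 10.0, n = 4). In WT BM neutrophils it was at 43.1, 39.9, 40.4 and 33.8 CPM (mean 39.3, SD 3.89, n = 4). Thus the PyMT TAN libraries stood above all others, and the PyMT-Cxcr2-/- and WT BM libraries overlapped. The TANs differed by a log2 fold change of -1.77 (SE 0.19, 95% interval -2.17 to -1.36, adjusted p = 0.0030, same test). Against WT BM neutrophils it was 1.96 in PyMT TANs (SE 0.13, adjusted p = 5.0e-07, same test) and 0.27 in PyMT-Cxcr2-/- TANs (SE 0.16, adjusted p = 0.14, same test), and these values became 1.34 and -0.37 with each library adjusted for GC and length trends of its genes.

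Promoters of these neighbours are shown because both genes were lower and face away from each other. They are the 250 bases before the RefSeq start of each gene (GRCm38.p6, which is mm10), on the strand of the gene, with the promoter of Stk11ip beside them. Capitals mark the GC box, searched on both strands as GGGCGG, which reads CCGCCC on the opposite strand.
Tns1, chr1:74124549-74124798, minus strand: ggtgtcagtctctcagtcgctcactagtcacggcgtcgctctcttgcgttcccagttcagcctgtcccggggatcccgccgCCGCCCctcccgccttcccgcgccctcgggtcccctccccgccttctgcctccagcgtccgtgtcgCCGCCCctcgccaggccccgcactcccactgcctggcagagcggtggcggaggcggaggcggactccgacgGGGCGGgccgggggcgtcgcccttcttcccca
Rufy4, chr1:74125291-74125540, plus strand: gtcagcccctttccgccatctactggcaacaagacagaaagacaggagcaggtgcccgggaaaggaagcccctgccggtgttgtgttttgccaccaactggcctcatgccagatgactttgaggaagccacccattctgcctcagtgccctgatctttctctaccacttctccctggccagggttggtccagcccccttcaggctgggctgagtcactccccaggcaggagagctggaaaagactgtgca
Stk11ip, chr1:75521279-75521528, plus strand: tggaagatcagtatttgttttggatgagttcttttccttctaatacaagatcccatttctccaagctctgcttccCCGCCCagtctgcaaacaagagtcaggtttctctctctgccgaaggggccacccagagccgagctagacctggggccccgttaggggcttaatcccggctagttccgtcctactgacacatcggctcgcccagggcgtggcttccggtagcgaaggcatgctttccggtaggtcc
The windows differ in makeup. CpG, GC content and motifs were counted with the 50 bases after the start, 300 bases in all. The promoter of Tns1 held 37 CpG and had a GC content of 75.7%, that of Rufy4 held 3 CpG (57.7%) and that of Stk11ip 15 CpG (56.7%). A GC box was present in the windows of Tns1 and Stk11ip and was not in that of Rufy4. Of the 55 flanking genes, 47 had a promoter in this table, and 29 of these (61.7%) held a GC box, against 35.7% of all 32851 promoters. Their median CpG number was 16, against 7 over all promoters. The TATA box (TATAAA) was rarer than among all promoters, in 2 of 47 (4.26%) against 13.6%. The CCAAT box (CCAAT) was in 16 of 47 (34.0%) against 37.4%, the ETS core (AGGAAGT) in 5 (10.6%) against 9.35%, the E-box (CACGTG) in 3 (6.38%) against 7.15% and the C/EBP palindrome (TTGCGCAA) in 0 against 0.183%. All were searched on both strands and none contains another, and a match describes a sequence and is not evidence of binding. The 47 genes passed the count limit, which was not set for all promoters. The sets are therefore unlike, and these contrasts cannot be read as a trait of this region.

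Stk11ip (ENSMUSG00000026213; chromosome 1, 75521529 to 75537335, plus strand) lies 1.36 Mb after Cxcr2. It encodes a partner of the kinase Stk11, also known as Lkb1. Its levels were 56.6, 59.8, 47.1 and 36.1 CPM in PyMT TANs (mean 49.9, SD 10.7, n = 4). They were 25.9, 23.8, 23.7 and 25.4 CPM in PyMT-Cxcr2-/- TANs (mean 24.7, SD 1.11, n = 4) and 59.4, 64.3, 61.7 and 61.5 CPM in WT BM neutrophils (mean 61.7, SD 2.02, n = 4). As for Rufy4, the PyMT-Cxcr2-/- libraries were below all 8 others. The TANs differed by a log2 fold change of -1.02 (SE 0.17, 95% interval -1.39 to -0.64, adjusted p = 0.017, same test). This call was lost without PyMT replicate 2 (adjusted p = 0.070, same test) and without PyMT-Cxcr2-/- replicate 3 (0.077) or 4 (0.065). Against WT BM neutrophils the log2 fold change was -1.19 in PyMT-Cxcr2-/- TANs (SE 0.09, adjusted p = 1.0e-07, same test) and -0.24 in PyMT TANs (SE 0.15, adjusted p = 0.20, same test).

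Rufy4 and Stk11ip were the flanking genes whose PyMT-Cxcr2-/- libraries were below all 8 other libraries, which held for 1.45% of the genes tested. No flanking gene was above all 8, which held for 1.02%. Between the TANs alone, the libraries of the groups did not overlap for 7 flanking genes, with PyMT-Cxcr2-/- TANs lower for 4 and higher for 3. Over all genes tested, 5.70% lay lower and 6.33% higher without overlap. Besides the 4 called genes these were Cxcr1, Ctdsp1 and Gmppa.

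**Figure D2:**
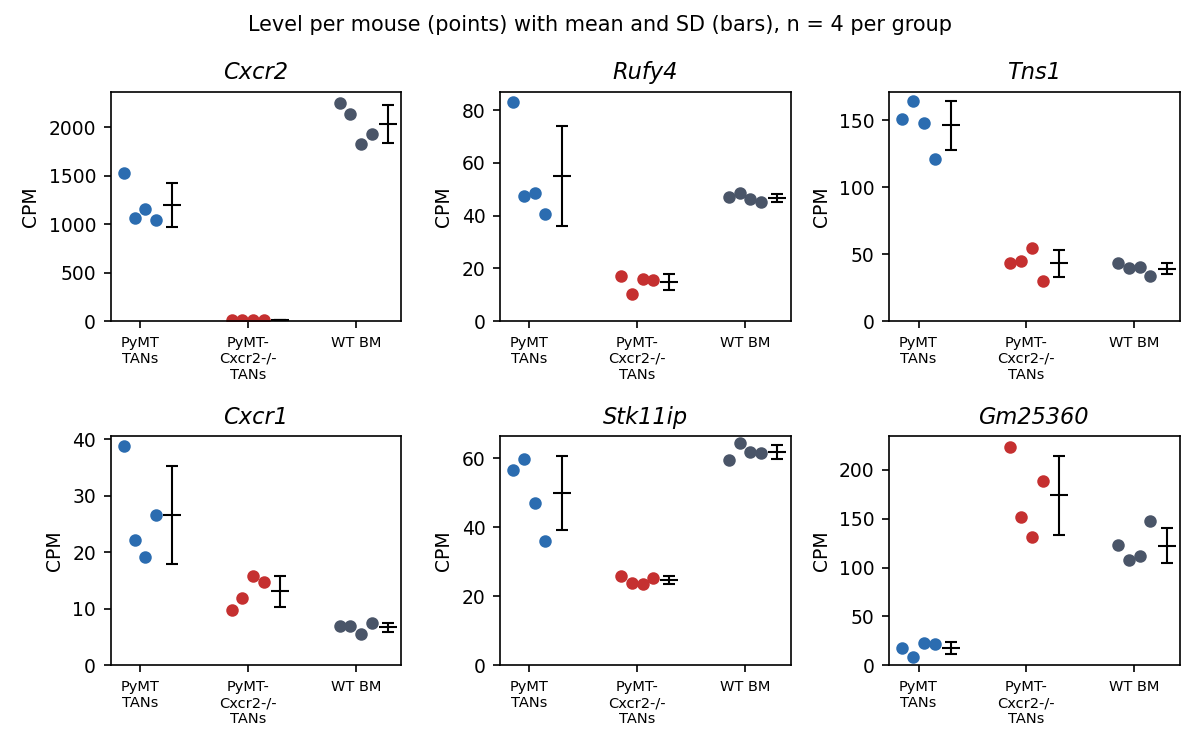
CPM per mouse (points) of Cxcr2 and 5 flanking genes in PyMT TANs, PyMT-Cxcr2-/- TANs and WT BM neutrophils, with the mean and SD of each group of 4 beside them, each panel on its own axis from 0. Rufy4 and Stk11ip are lowest in PyMT-Cxcr2-/- TANs, Tns1 is highest and Gm25360 lowest in PyMT TANs, and Cxcr1 is between the other groups in PyMT-Cxcr2-/- TANs.

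Gm25360 (ENSMUSG00000094655; chromosome 1, 72226240 to 72226430, plus strand) was the flanking gene with the largest change between the TANs. It is annotated as a small nuclear RNA of 191 bases and resembles U2, the RNA of the spliceosome that pairs with the branch site of introns. Among listed genes annotated as small nuclear RNAs of similar length, 13 shared at least 90% of their bases with it, itself included. Of the 13, 4 lie in the window. Copies annotated as another type or of other lengths were not searched. These 4 are shown because reads of one copy can be counted for another. Capitals mark the 5 positions at which they differ (GENCODE M21 transcripts, mm10, plus strand).
Gm25360, chr1:72226240-72226430: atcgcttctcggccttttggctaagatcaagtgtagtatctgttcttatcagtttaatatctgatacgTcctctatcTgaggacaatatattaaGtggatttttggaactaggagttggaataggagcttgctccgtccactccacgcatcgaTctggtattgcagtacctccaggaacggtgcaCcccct
Gm23472, chr1:72236946-72237136: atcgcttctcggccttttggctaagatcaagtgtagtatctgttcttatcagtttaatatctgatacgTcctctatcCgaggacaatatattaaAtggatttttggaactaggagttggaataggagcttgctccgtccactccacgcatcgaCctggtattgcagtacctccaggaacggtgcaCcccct
Gm24497, chr1:72244213-72244403: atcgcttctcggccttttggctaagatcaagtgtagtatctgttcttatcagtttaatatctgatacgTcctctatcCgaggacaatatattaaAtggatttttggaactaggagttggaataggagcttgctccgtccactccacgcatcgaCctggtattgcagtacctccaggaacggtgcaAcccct
Gm25939, chr1:72255008-72255198: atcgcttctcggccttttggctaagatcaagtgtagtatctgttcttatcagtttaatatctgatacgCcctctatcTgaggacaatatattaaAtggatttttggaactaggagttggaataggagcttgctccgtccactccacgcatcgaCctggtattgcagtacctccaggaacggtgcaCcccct
Counted from 1 at the 5′ end with the base of Gm25360 first, Gm23472 carries T78C, G95A and T154C. Gm24497 carries C186A in addition, and Gm25939 carries T69C, G95A and T154C. No other gene of the family was identical to Gm25360, and the closest differed at 3 bases.

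Gm25360 was at 18.1, 8.90, 22.6 and 22.2 CPM in PyMT TANs (mean 18.0, SD 6.36, n = 4). It was at 223.5, 151.6, 131.3 and 188.4 CPM in PyMT-Cxcr2-/- TANs (mean 173.7, SD 40.8, n = 4) and at 122.8, 108.1, 111.3 and 147.3 CPM in WT BM neutrophils (mean 122.4, SD 17.8, n = 4). All PyMT TAN libraries were below the other 8, while PyMT-Cxcr2-/- TANs and WT BM neutrophils overlapped. The log2 fold change was 3.27 between PyMT-Cxcr2-/- and PyMT TANs (SE 0.29, 95% interval 2.64 to 3.91, adjusted p = 0.0010, same test). Against WT BM neutrophils it was -2.70 in PyMT TANs (SE 0.26, adjusted p = 7.2e-06, same test) and 0.64 in PyMT-Cxcr2-/- TANs (SE 0.16, adjusted p = 0.0026, same test). The second of these calls was lost without PyMT-Cxcr2-/- replicate 1 (log2 fold change 0.52) or WT BM replicate 2 (0.57), each then under 1.5-fold, and with 12 libraries in one fit (0.51, edgeR adjusted p = 0.084). With each library adjusted for GC and length trends of its genes, the values against the marrow moved to -1.63 in PyMT TANs and 1.46 in PyMT-Cxcr2-/- TANs, both called.

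The other copies are given beside it. Gm25939, also among the flanking genes, was at 5.76, 3.47, 10.6 and 2.58 CPM in PyMT TANs. Without Cxcr2 it was at 4.45, 1.93, 2.73 and 2.90 CPM, and in the marrow at 12.9, 10.4, 10.6 and 17.5 CPM. The TAN groups overlapped, with a log2 fold change of -0.90 (SE 0.45, 95% interval -1.89 to 0.08, adjusted p = 0.38, same test). Summed over the 12 other genes of the family, the level was 9.52 to 27.9 CPM for PyMT TANs, 7.79 to 12.1 for PyMT-Cxcr2-/- TANs and 21.9 to 35.1 for WT BM neutrophils. Gm25360 held between 44.7% and 70.0% of the family's level in PyMT TANs, between 94.4% and 95.2% without Cxcr2 and between 80.7% and 83.6% in the marrow. How reads that match several copies were treated is not given in the sources used here, so the split between copies is uncertain.

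**Figure D3:**
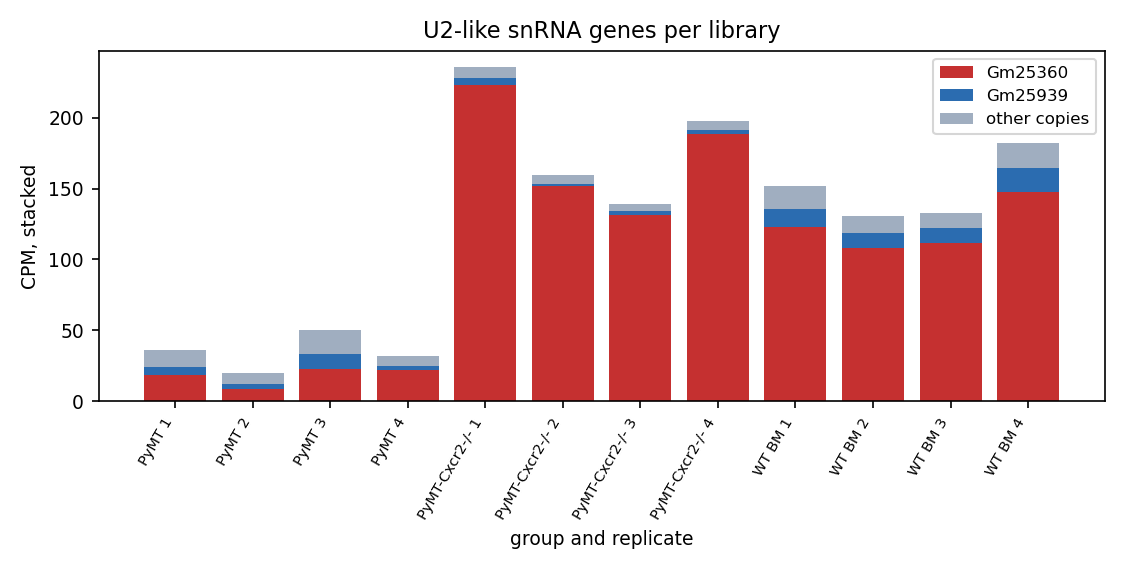
Stacked CPM of the 13 U2-like small nuclear RNA genes in each of the 12 libraries, with Gm25360 in red, Gm25939 in blue and the 11 other copies in grey. The red part is 8.90 to 22.6 CPM for PyMT TANs, 131.3 to 223.5 for PyMT-Cxcr2-/- TANs and 108.1 to 147.3 for WT BM neutrophils.

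Cxcr1 (ENSMUSG00000048480; chromosome 1, 74191785 to 74194631, minus strand) is the nearest gene after Cxcr2, at a gap of 30.5 kb. It was at 38.9, 22.2, 19.2 and 26.7 CPM in PyMT TANs (mean 26.7, SD 8.67, n = 4). It was at 9.88, 12, 15.8 and 14.8 CPM in PyMT-Cxcr2-/- TANs (mean 13.1, SD 2.70, n = 4) and at 6.93, 6.90, 5.54 and 7.54 CPM in WT BM neutrophils (mean 6.73, SD 0.848, n = 4). The 3 groups did not overlap, with PyMT-Cxcr2-/- TANs between the others. The TANs differed by a log2 fold change of -1.03 (SE 0.24, 95% interval -1.56 to -0.50), which missed the threshold (adjusted p = 0.057, same test). It was called with DESeq2 (log2 fold change -0.98, DESeq2 adjusted p = 0.0066) and without PyMT replicate 3 (-1.15, edgeR adjusted p = 0.045). Relative to the marrow, Cxcr1 was higher by 2.05 on the log2 scale in PyMT TANs (SE 0.23, adjusted p = 2.2e-05, same test) and by 1.10 in PyMT-Cxcr2-/- TANs (SE 0.18, adjusted p = 1.0e-04, same test).

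Next after Cxcr1 come Arpc2, Gpbar1, Aamp and Pnkd, at gaps of 74.8, 117.3, 118.6 and 123.7 kb. Arpc2, a subunit of the Arp2/3 complex that branches actin filaments, was at 361.9 to 439.8 CPM with and 439.1 to 559.1 CPM without Cxcr2 in TANs, and the difference of 0.31 on the log2 scale was not called (SE 0.13, adjusted p = 0.30, same test). Gpbar1, a bile acid receptor, was at 0 to 1.58 CPM in all TAN libraries, which is too few counts to place it (95% interval of the log2 fold change -3.50 to 1.87). Aamp, named for a role in cell migration, differed by -0.19 (95% interval -0.51 to 0.13), and Pnkd, a gene of the dyskinesia that gives it its name, by 0.10 (95% interval -0.63 to 0.83). Pnkd overlaps other genes on both strands, so its count is uncertain.

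On the other side, the nearest genes after Tns1 are already 624.2 kb away or more. They are the long noncoding RNA genes C530043A13Rik and Pinc and the gene of the insulin-like growth factor binding protein Igfbp5. Their levels varied widely within the TAN groups, and no difference between the TANs was called. Igfbp5 was at 71.9, 44.8, 715.2 and 472.6 CPM in PyMT TANs, and in PyMT-Cxcr2-/- TANs at 323.7, 908.2, 194.8 and 238.5 CPM (log2 fold change 0.35, standard error 0.88, adjusted p = 0.93, same test).

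By distance, called genes stood both near to and far from Cxcr2, and the counts are to be read against the 0.596% lower and 1.38% higher among all genes tested. Within 0.5 Mb, 2 of 21 flanking genes tested were lower, and between 0.5 and 1 Mb none of 8 was called. Between 1 and 1.5 Mb, 1 of 18 was lower, and between 1.5 and 2 Mb, 1 of 6 was higher. Medians of the log2 fold change in these 4 ranges were 0.04, -0.08, -0.03 and -0.49. Of the 11 genes before Cxcr2, 8 had a negative and 3 a positive log2 fold change, and of the 42 tested after it, 22 and 20. Across the 53 genes, Spearman's rho of distance with the absolute log2 fold change was 0.0336, given as a description, since the genes share the same 8 libraries. Genes with few counts add large values of little precision, such as Slc4a3 (-1.26, SE 1.20) and Tmem198 (-1.17, SE 1.12). The rho therefore cannot show whether changes lie close to Cxcr2.

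Outside the 4 called genes, log2 fold changes between the TANs lay between -1.26 and 0.63. At an unadjusted p under 0.05 there were 12 of the 53 flanking genes (22.6%), against 15.2% of all genes tested and 15.2% of those on chromosome 1 outside the window. Mreg, the melanoregulin gene of lysosome-related organelles, lies 1942 kb before Cxcr2, close to Gm25360. It was at 28.6, 26.9, 7.64 and 16.8 CPM in PyMT TANs, and without Cxcr2 it was at 9.39, 6.34, 8.16 and 9.60 CPM. PyMT replicate 3 overlapped the other group, and the log2 fold change of -1.26 was not called (SE 0.35, adjusted p = 0.097, same test), while without that library it was -1.52 and was called (adjusted p = 0.024, same test). Ctdsp1, a phosphatase that acts on the tail of RNA polymerase II, was at 80.7 to 127.7 CPM for PyMT TANs, 147.5 to 196.6 for PyMT-Cxcr2-/- TANs and 293.2 to 410.9 for WT BM neutrophils, without overlap between any pair of groups. Its log2 fold change between the TANs was 0.63 (SE 0.16, adjusted p = 0.078, same test), and DESeq2 called it (0.68, DESeq2 adjusted p = 0.0080).

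Mir26b lies within Ctdsp1 on the same strand and encodes miR-26b. Its 2 mature forms are given from RefSeq (GRCm38.p6, plus strand) with the seed, bases 2 to 8, in capitals.
miR-26b-5p, chr1:74394324-74394344: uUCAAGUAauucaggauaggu
miR-26b-3p, chr1:74394360-74394381: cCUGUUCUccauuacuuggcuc
The gene had between 0 and 31 counts per library and was not tested between the TANs. Counts on it come from libraries of long RNA, and reads of its host that cross it cannot be told apart from its precursor.

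Compared with WT BM neutrophils, many more flanking genes differed, as did many genes elsewhere. In PyMT TANs, 48 flanking genes could be tested, and 16 rose while 14 fell (62.5% called), and of all 17153 genes tested 30.1% rose and 23.2% fell. In PyMT-Cxcr2-/- TANs, 52 could be tested, and 21 rose while 17 fell (73.1% called), and of all 17732 genes tested 34.4% rose and 25.1% fell. Median log2 fold changes were -0.05 and 0.23 for the flanking genes and 0.09 and 0.09 for all genes tested. Both comparisons share the WT BM libraries, so values are set side by side and no agreement between them is drawn.

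Genes with transcripts nearly lacking in the marrow had the largest rises. Pinc, C530043A13Rik, Speg and Slc4a3 are among the 7 flanking genes with under 10 counts in every BM library. These 7 passed the count limit through TAN libraries only, so a rise over the marrow is partly built into their choice. Igfbp5 was at 0.780, 0.372, 0.229 and 0.0561 CPM in WT BM neutrophils, and its log2 fold change was 9.91 in PyMT TANs (SE 1.14, adjusted p = 2.3e-05, same test) and 10.33 in PyMT-Cxcr2-/- TANs (SE 0.88, adjusted p = 1.6e-05, same test). The first was 9.18 without PyMT replicate 3 and 10.57 without WT BM replicate 1, and the second 9.63 without PyMT-Cxcr2-/- replicate 2 and 11.03 without WT BM replicate 1. Pinc, an RNA named for its induction in the mammary gland by pregnancy, had 0 counts in all 4 BM libraries. With a floor of 3 counts per library it was at least 19.3-fold higher in PyMT TANs and at least 18.8-fold higher in PyMT-Cxcr2-/- TANs, at 0 to 4.40 CPM in single TAN libraries. These bounds fell to 9.17-fold without PyMT replicate 4 and to 9.03-fold without PyMT-Cxcr2-/- replicate 2. C530043A13Rik had 1 count in the BM libraries together, for a ratio of 350.9 in PyMT TANs (95% counting interval 63.0 to 13859) and 328.3 in PyMT-Cxcr2-/- TANs (58.9 to 12966). Speg, a kinase gene of striated muscle, had 2, for ratios of 205.5 (56.9 to 1697) and 180.4 (49.9 to 1489), and Slc4a3, an anion exchanger gene, also had 2, for ratios of 74.3 (20.6 to 613.3) and 31.3 (8.67 to 258.5). Pinc and C530043A13Rik were not tested between PyMT TANs and the marrow, and Slc4a3 was tested in neither comparison with the marrow. PyMT replicate 2 had 0 counts of Pinc and C530043A13Rik, and PyMT replicate 3 had 0 of Slc4a3. The intervals cover counting error only, and single libraries moved the ratios further. Without PyMT replicate 3 the ratio in PyMT TANs was 196.9 for C530043A13Rik and 100.6 for Speg, and without PyMT replicate 2 it was 40.8 for Slc4a3. Without PyMT-Cxcr2-/- replicate 2 the ratio in that group was 210.5 for C530043A13Rik, 122.8 for Speg and 12 for Slc4a3. The count of C530043A13Rik came from WT BM replicate 3 and those of Speg and Slc4a3 from WT BM replicate 4. Without that library the same floor gives at least 29.0-fold and 27.1-fold higher levels of C530043A13Rik in PyMT and PyMT-Cxcr2-/- TANs, 33.7-fold and 29.6-fold of Speg and 12.2-fold and 5.13-fold of Slc4a3. Pinc, C530043A13Rik and Speg overlap genes on the opposite strand.

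Most transcripts of a list for mammary epithelium were also higher in both types of TANs than in the marrow. The list for mammary epithelium and tumor had 8 genes, of which Lcn2 is also a granule protein gene of neutrophils and went the other way, called lower in both types of TANs than in the marrow and higher in PyMT-Cxcr2-/- than in PyMT TANs. With it, the sums were 337.3 to 793.6 CPM for PyMT TANs, 1049 to 1814 for PyMT-Cxcr2-/- TANs and 5352 to 8549 for WT BM neutrophils. It was left out after its values were seen, and the 7 other epithelial and milk protein genes (Krt8, Krt18, Krt19, Epcam, Cdh1, Csn3 and Csn2) summed to 48.3, 61.4, 304.1 and 441.4 CPM in PyMT TANs. The sums were 243.2, 321.6, 79.4 and 116.4 CPM in PyMT-Cxcr2-/- TANs and 0.0600 to 0.402 CPM in the marrow, where Krt8, Krt19, Csn3 and Csn2 were at 0. Of the 6 tested against the marrow, 6 were higher in each type of TANs. In both TAN groups, the 2 libraries with the higher sum over these 7 genes were also the 2 with the higher level of Igfbp5. The same held for Pinc, but not for C530043A13Rik in PyMT-Cxcr2-/- TANs or for Speg and Slc4a3 in PyMT TANs. These matches depend on the list. With Lcn2 kept in, the sums in PyMT-Cxcr2-/- TANs were 1076, 1297, 1049 and 1814 CPM. In that group the matches of Igfbp5, Pinc, Speg and Slc4a3 were then lost, and C530043A13Rik matched. The 6 fibroblast markers summed to 0.801 to 13.7 CPM for PyMT TANs, 1.77 to 35.1 for PyMT-Cxcr2-/- TANs and 0.168 to 1.76 for WT BM neutrophils. Against the marrow, 2 of 3 tested were called higher in PyMT TANs and 4 of 4 in PyMT-Cxcr2-/- TANs. The part of epithelial and fibroblast transcripts in the levels of Igfbp5, Pinc, C530043A13Rik, Speg and Slc4a3 was not tested.

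Other rises were those of Usp37 and Cyp27a1. Usp37, a deubiquitinase of the cell cycle, was at 98.6 to 182.5 CPM for PyMT TANs, 107.3 to 151.2 for PyMT-Cxcr2-/- TANs and 11.8 to 16.5 for WT BM neutrophils. Its log2 fold change was 3.39 (SE 0.21, adjusted p = 2.5e-07, same test) and 3.43 (SE 0.15, adjusted p = 9.2e-10, same test), though its span overlaps genes on both strands. Cyp27a1, the sterol 27-hydroxylase, averaged 14.6 (SD 8.85), 11.1 (SD 3.66) and 0.335 CPM (SD 0.224) in the 3 groups, and its level in the marrow was about as low as that of Igfbp5. Its log2 fold change was 5.51 in PyMT TANs (SE 0.58, adjusted p = 1.2e-05, same test) and 5.18 in PyMT-Cxcr2-/- TANs (SE 0.41, adjusted p = 1.7e-07, same test). All 8 macrophage markers were also higher in both types of TANs than in WT BM neutrophils, and their part in the level of Cyp27a1 was not tested.

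The largest falls among genes other than the small nuclear RNAs were smaller than these rises. Bcs1l, an assembly factor of respiratory complex III, averaged 3.01 CPM (SD 0.910) in PyMT TANs, 3.87 (SD 0.695) without Cxcr2 and 15.2 (SD 1.10) in the marrow. Its log2 fold change was -2.27 in PyMT TANs (SE 0.26, adjusted p = 2.3e-05, same test) and -1.84 without Cxcr2 (SE 0.17, adjusted p = 6.6e-07, same test). Its neighbour Rnf25, a ubiquitin ligase gene, averaged 14.3 (SD 3.37), 16.6 (SD 2.48) and 65.5 CPM (SD 4.01), with log2 fold changes of -2.13 and -1.84. The miRNA gene Gm25035, which lies in Zfp142, was at 0 to 0.588, 0 to 0.207 and 0.360 to 1.09 CPM, and its fall in PyMT-Cxcr2-/- TANs (log2 fold change -2.35, adjusted p = 0.0085, same test) rests on these few counts and was -1.67 with the GC and length adjustment. Gm25939 had log2 fold changes of -1.13 in PyMT TANs (adjusted p = 0.031, same test) and -1.96 in PyMT-Cxcr2-/- TANs (adjusted p = 1.5e-05, same test), and these became 0.09 and -1.15 with the same GC and length adjustment, and the first was not called without PyMT replicate 2 or 4 or WT BM replicate 1 or 4.

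**Figure D4:**
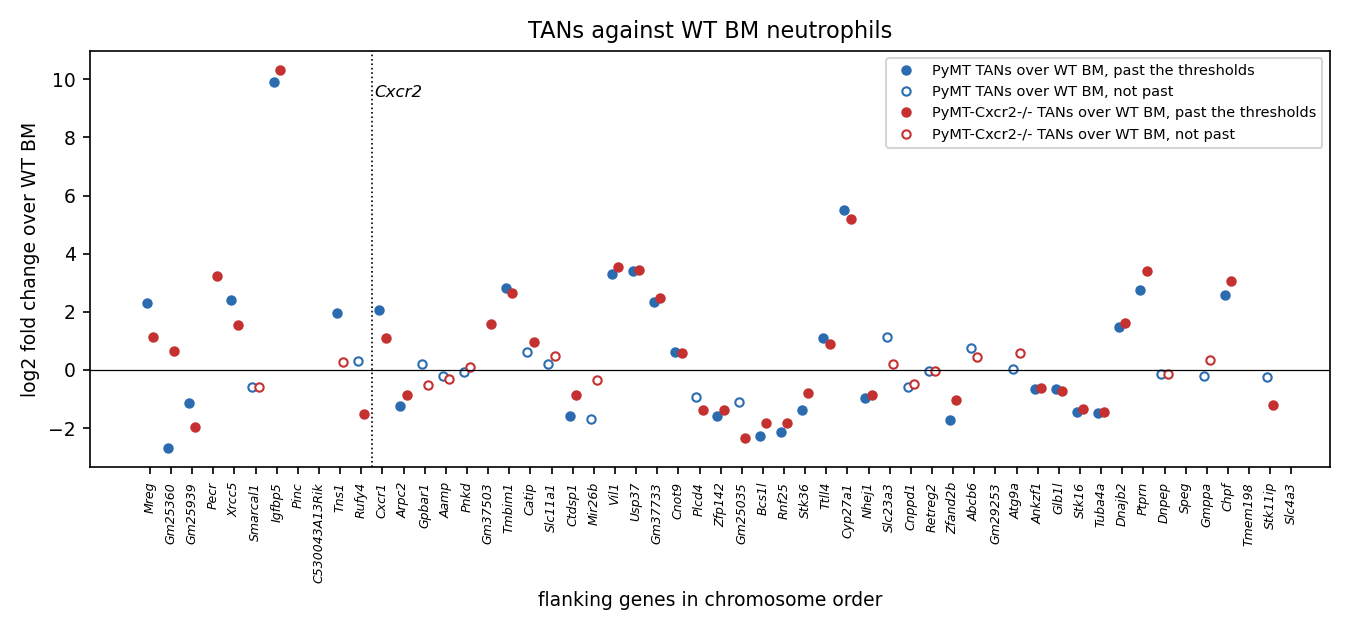
Log2 fold change over WT BM neutrophils (vertical axis) of the flanking genes in chromosome order (horizontal axis), for PyMT TANs in blue and PyMT-Cxcr2-/- TANs in red, filled where called and open where not. Pinc, C530043A13Rik, Speg and Slc4a3, with 0 to 2 counts in the BM libraries together, and genes not tested have no point. Igfbp5 is highest at 9.91 and 10.33, and for Rufy4 and Stk11ip the red point alone is filled, for Tns1 the blue one.

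The flanking genes have unrelated functions, and 6 lists by role were counted. Their counts stand against shares over all genes tested of 1.38% higher and 0.596% lower between the TANs, 30.1% and 23.2% for PyMT TANs against the marrow and 34.4% and 25.1% for PyMT-Cxcr2-/- TANs against the marrow. The lists are short, and no count was tested against these shares. They also overlap, and a shared gene is counted in each of its lists. Mreg is in the immune, mitochondria and vesicle lists, and Cyp27a1 in the immune and mitochondria lists. Tmbim1 is in the immune and vesicle lists, and Arpc2 in the immune and cytoskeleton lists. Of the 9 immune and receptor genes, 1 (Rufy4) was lower in PyMT-Cxcr2-/- than in PyMT TANs. Compared with the marrow, 4 were higher and 1 lower in PyMT TANs, and 4 rose and 2 fell in PyMT-Cxcr2-/- TANs. Slc11a1, the metal transporter Nramp1 of phagosomes, was among the 3 highest flanking genes per kb of exon, at 109.1 CPM per kb over all libraries. Its levels of 371.0 to 419.2 CPM for PyMT TANs, 406.2 to 485.2 for PyMT-Cxcr2-/- TANs and 327.7 to 390.8 for WT BM neutrophils gave no call in any comparison. Arpc2, at 306.4 CPM per kb, had log2 fold changes against the marrow of -1.23 in PyMT TANs (SE 0.12, adjusted p = 6.0e-06, same test) and -0.86 in PyMT-Cxcr2-/- TANs (SE 0.11, adjusted p = 1.4e-05, same test).

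Of the 7 genes of DNA repair, chromatin and transcription, none was called between the TANs, and 3 were higher and 3 lower than in the marrow in each type of TANs. Usp37, Cnot9 and Xrcc5, which encodes the Ku80 subunit of the end-joining machinery, were higher. Ctdsp1, Zfp142 and Nhej1, another gene of end joining, were lower. Xrcc5 was at 1.64 to 4.28, 1.34 to 2.39 and 0.248 to 1.01 CPM in the 3 groups, and Nhej1 at 2.21 to 4.23, 1.98 to 4.15 and 5.67 to 6.63 CPM.

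Of the 12 genes of mitochondria and metabolism, none was called between the TANs. In PyMT TANs 2 of 11 tested were higher and 3 lower than in the marrow, and in PyMT-Cxcr2-/- TANs 3 of 12 were higher and 4 lower. Mreg, put in this list although it is a gene of lysosome-related organelles, rose by 2.30 and 1.12 on the log2 scale (adjusted p = 0.00032 and 0.00040, same test). Ankzf1, which acts in the rescue of stalled ribosomes, had log2 fold changes of -0.65 and -0.61 (adjusted p = 0.0035 and 0.00036, same test), near the limit of 1.5-fold, and overlaps Atg9a and Glb1l on the opposite strand. Its call in PyMT-Cxcr2-/- TANs was lost without PyMT-Cxcr2-/- replicate 1 or 2 or WT BM replicate 2, and both calls were lost with a minimum count of 50 in the filter (-0.56 and -0.57).

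Of the 12 genes of vesicles, autophagy and protein turnover, 1 (Stk11ip) was lower in PyMT-Cxcr2-/- than in PyMT TANs. Against the marrow, 4 of 11 tested were higher and 3 lower in PyMT TANs, and 4 rose and 4 fell in PyMT-Cxcr2-/- TANs. Retreg2, a receptor for autophagy of the endoplasmic reticulum, was at 70.1 to 139.2, 95.1 to 109.5 and 97.8 to 130.2 CPM in the 3 groups, which overlapped in every pair. Cnppd1, a cyclin-like gene next to it, was at 90.2 to 156.1, 100.9 to 142.3 and 182.6 to 210.1 CPM, with log2 fold changes of -0.57 and -0.48 against the marrow, which is under 1.5-fold.

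Of the 8 genes of the cytoskeleton and cilia, 1 (Tns1) was lower in PyMT-Cxcr2-/- than in PyMT TANs, and 4 were higher and 3 lower than in the marrow in each type of TANs, although the 4 higher genes differed, since Tns1 was called in PyMT TANs and Catip in PyMT-Cxcr2-/- TANs. Tuba4a, an alpha tubulin gene, fell from 233.8 to 296.6 CPM in WT BM neutrophils to 70.2 to 108.1 CPM (PyMT TANs) and 69.1 to 110.0 CPM (PyMT-Cxcr2-/- TANs) (log2 fold change -1.49 and -1.44, adjusted p = 1.2e-05 and 1.7e-06, same test). It overlaps Stk16 on the opposite strand, which had log2 fold changes of -1.45 and -1.34.

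Of the 13 secreted ligands and developmental genes in the window, 3 (Igfbp5, Ptprn and Slc4a3) reached the count limit. The other 10, among them Wnt6, Wnt10a and Ihh, did not. Ptprn, a gene of neuroendocrine secretory granules, was at 1.33 to 5.71 CPM for PyMT TANs, 3.86 to 7.64 for PyMT-Cxcr2-/- TANs and 0.403 to 0.602 for WT BM neutrophils. It rose by 2.74 and 3.41 on the log2 scale against the marrow (adjusted p = 0.0012 and 5.8e-07, same test) and overlaps a gene on the opposite strand. In all, 27 of the 55 flanking genes overlap another annotated gene. The library kit marks the strand, but the strand setting of the counting is not given in the sources used here, so their counts are uncertain.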

How the data were processed

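Neutrophils of 12 mice, 4 each of PyMT TANs, PyMT-Cxcr2-/- TANs and WT BM, were profiled by RNA-seq. Per the labels and methods, ribosomal RNA was depleted, libraries were directional and paired-end, reads were trimmed and aligned to mm10 with Star, and the authors used HTSeq to count reads per gene. What was deposited are these raw counts for 55335 genes. The annotation, strand setting and treatment of reads with several matches are not given in the sources used here. HTSeq classes without a gene held 32.0% to 52.5% (no feature) and 8.0% to 14.3% (other classes) of all counts and were left out. Depth, by group, was 25032704 to 43092085, 35519181 to 51351569 and 38722900 to 44310707 counts on genes.

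Identifiers were matched without version suffix to GENCODE M21 (55154 matched, 54587 with the same version). The genes, role lists and tests were chosen with earlier results of these data known, and the rule on counts used the same libraries. edgeR 4.0.16 (R 4.3.3) was run on the 2 groups of each comparison with TMM, filterByExpr, robust estimation and the quasi-likelihood test, with p adjusted over all genes tested. A gene was called at adjusted p under 0.05 and 1.5-fold or more. These thresholds are those of the study's methods, and DESeq2 1.42.0, which the authors used, was an alternative. CPM use TMM factors over 12 libraries. The standard error is the log2 fold change over the square root of F. Replicate pairs differed by more than sampling noise (chi-square per degree of freedom 24.9 to 150). The edgeR fit was also run on simulated counts with known changes for the comparison of the TANs. These were drawn independently around the same mean in all libraries of a group. They do not cover uneven cell content of the libraries, and no conclusion is drawn from them.

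Named genes were Cxcr2, the members called between the TANs, the 5 nearest on each side, the 2 highest per kb of exon in each role list, the 3 largest rises and falls against WT BM neutrophils, those beside the count limit and those with PyMT-Cxcr2-/- TANs outside both groups. Mreg and Ctdsp1 were also named by the role rule. Gmppa, Gm37733, Xrcc5, Nhej1, Zfp142, Cnot9, Catip, Stk16, Slc4a3 and the U2-like copies were named after their values were seen. Promoter and miRNA sequences and small nuclear RNA transcripts came from RefSeq GRCm38.p6 and GENCODE M21. Other alternatives were RLE factors, other filters, all 12 libraries fitted together, no robust estimation, the replicate block, an adjustment of each library for GC content and gene length, other windows and limits, members without overlapping genes, and each mouse left out.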

Additional observations from a re-analysis of the deposited data

Results flagged for a closer look

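A library was marked where its gap to the nearest of the other 3 of its group as a share of the group's range exceeded Dixon's 95% critical value for 4 samples. Of 89 groups of 4 checked, 5 were marked, and chance gives about 1 in 20. Ctdsp1 was at 410.9 CPM in WT BM replicate 1, against 293.2 to 311.3 in the others. Mir26b, which lies in Ctdsp1, was at 0.930 CPM in the same library, against 0.252 to 0.341. Ptprn was at 7.64 CPM in PyMT-Cxcr2-/- replicate 3, against 3.86 to 4.18. Speg was at 7.64 CPM in PyMT replicate 3, against 0.886 to 1.92, and at 5.19 CPM in PyMT-Cxcr2-/- replicate 2, against 1.46 to 2.09. What lies behind these values was not tested.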

How the results depend on the processing

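The log2 fold change of Cxcr2 between the TANs was -6.92 with the libraries adjusted for GC and length of genes and -6.81 to -7.06 with each mouse left out. Rufy4 kept its call in all 9 other fits and 8 of 8 with a mouse left out (log2 fold change -1.93 to -1.85 and -2.02 to -1.59). Tns1 and Gm25360 lost theirs with the replicate block and that adjustment together (log2 fold change -1.81 and 3.17, edgeR adjusted p = 0.092 and 0.10) and in no other fit. Stk11ip lost its call with the block (-0.99, adjusted p = 0.13), with both (-1.01, adjusted p = 0.15) and in 3 of 8 fits with a mouse left out. Same-numbered libraries of the TANs did not deviate together (correlation -0.226 to -0.0752, 0 of 8 closest to their own number). When the marrow was set beside TANs lacking Cxcr2, 6 of 8 were closest to their own number (correlation -0.00153 to 0.0866). With PyMT TANs beside the marrow it was 0 of 8 (-0.109 to 0.0492). Such correlations cannot show whether same-numbered mice shared a litter, day or batch, which the labels do not give. With the replicate block 1 flanking gene was higher and 2 lower between the TANs, and with the adjustment added 0 and 1.

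Flanking genes called higher between the TANs, 1 in the report, were 2 with DESeq2, without a filter on low counts and with 12 libraries in one fit, 0 within 1 Mb, and 1 to 2 with each mouse left out. Those lower, 3 in the report, were 5 with DESeq2 and with 12 libraries in one fit (Cxcr1 and Mreg added). They were 4 without a filter on low counts, with a minimum count of 50 and with the GC and length adjustment (Cxcr1 added). With each mouse left out they were 2 to 5, the 5 without PyMT replicate 3. Against WT BM neutrophils, PyMT TANs had 9 higher and 7 lower within 1 Mb and 9 and 7 without overlapping genes, and 15 to 20 and 13 to 15 with each mouse left out. PyMT-Cxcr2-/- TANs had 12 and 10, 10 and 8, and 20 to 22 and 16 to 18. Both of these choices leave fewer genes.

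Directions changed in a few cases. Tns1 in PyMT-Cxcr2-/- TANs against the marrow turned to -0.37 with that adjustment and -0.39 with the block added, and Gm25939 in PyMT TANs against the marrow to 0.09 with that adjustment. Between the TANs, C530043A13Rik (-0.10) turned to 0.79 with the block, 0.08 with the adjustment and 0.94 with both, and lay between -0.72 and 0.73 in fits without a mouse. Pinc (-0.04) turned to 0.01 with RLE factors, 0.02 with DESeq2, 0.05 without a filter, 0.44 with the block, 0.06 with the adjustment and 0.52 with both, and ranged from -1.09 to 1.05. Igfbp5 (0.35) ranged from -0.36 to 1.09 and Pnkd (0.10) from -0.04 to 0.34. None of these 4 was called in any fit. The cause of these shifts was not tested. Depth limits what can be said of the 7 flanking genes with under 10 counts in every BM library.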
